A study of Mus musculus with 6 samples.

Results

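The regions described here are stretches of open chromatin that were listed as peaks in each Th9 library and each Th2 library but in no Th17 library. They were selected on the deposited ATAC-seq peak calls: overlapping or touching peaks of the 6 lists were joined on chromosomes 1 to 19, and a library counted as calling a joined region where at least 1 bp of one of its peaks lay in it. This gave 225467 regions, of which 4615 (2.05%) had the shared Th9 and Th2 pattern. The calls that made the choice say nothing further about Th17 cells, so the presence in Th9 and Th2 and the absence in Th17 are given as a description and are not tested.

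ATAC-seq marks DNA that the Tn5 transposase can reach, which is mostly nucleosome-free regulatory DNA. Wild-type C57BL6/J naive CD4+ T cells from spleen were cultured under Th9, Th2 or Th17 conditions, with 2 libraries per condition numbered replicate 1 and replicate 3. Per the study's methods, Th2 cultures received IL-4 and human IL-2, Th9 cultures received the same with TGF-β1, and Th17 cultures received IL-6, TGF-β1, IL-23 and IL-1β with antibodies to IL-4 and IL-2; antibody to IFN-γ was in each culture. IL-4, IL-2, the blockade of both, and the IL-6, IL-23 and IL-1β given to Th17 cultures alone therefore move together with the call pattern. Which of these agents goes with a given region cannot be told apart in this design. Cells of each culture were a bulk population, so a weaker peak in every cell and a peak in fewer cells cannot be distinguished. The labels do not state whether the 2 libraries of a condition came from separate mice, and p-values below measure only the spread between these libraries.

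Th2 cells make IL-4, IL-5 and IL-13 and are known for type 2 inflammation, and Th9 cells, which differ from them in culture by TGF-β, make IL-9. IL-4 acts through STAT6 and IL-2 acts through STAT5. STAT dimers bind a palindromic pair of short sites, TTC and GAA, with 3 or 4 bases between them, and GATA3 and the AP-1 family, which includes BATF, are further regulators of these cells. Th17 cells rely on STAT3.

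The 6 lists held 100317 to 142213 peaks, and the lowest fold enrichment listed ranged from 1.71 to 2.11. Read depth is unknown from these lists. Peak strength is therefore given as the percentile of a region's fold enrichment within the library's own list, where 100 is the strongest peak. T cell identity was checked by peaks at promoters: 7 or 8 of 8 T cell markers were called in each library. Of 15 markers of other blood cells, 1 to 3 were called per library, and 11 were called in none. Il17f and Il23r promoters were called in both Th17 libraries and in no other. Both Th9 and both Th2 lists held a peak over the Il9 start, and neither Th17 list did. At Il4 only the Th9 replicate 3 peak reached the start. The nearest peaks of Th9 replicate 1 and of both Th2 libraries stopped inside the gene, and neither Th17 list held a peak there. A peak at the Il13 start was listed for Th2 alone.

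The stretches printed first come from regions that recur in the results. Each is 120 bases of the GRCm38.p6 forward strand, 5′ to 3′, the exon-free part of its region with the most kinds of word. Capitals mark a STAT pair (TTC and GAA with 3 or 4 bases between), a GATA word (AGATAA or its complement TTATCT) or an AP-1 word (TGANTCA).
The region nearest Ppp2r3a, which had the highest value of its weakest percentile among all 4615, is chr9:101270486-101270605: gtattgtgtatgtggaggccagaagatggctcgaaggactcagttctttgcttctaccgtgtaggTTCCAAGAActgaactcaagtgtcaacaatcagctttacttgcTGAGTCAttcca
Tmcc1 intron, also among the 10 strongest, chr6:116166422-116166541: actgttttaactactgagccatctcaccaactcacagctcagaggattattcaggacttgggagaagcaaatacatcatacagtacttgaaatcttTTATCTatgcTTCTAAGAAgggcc
Kif3a intron, downstream of Il4, chr11:53592628-53592747: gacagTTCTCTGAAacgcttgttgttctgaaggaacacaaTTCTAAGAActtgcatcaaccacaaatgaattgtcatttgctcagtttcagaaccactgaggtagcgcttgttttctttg
Rad50 intron, in the type 2 cytokine locus, chr11:53655298-53655417: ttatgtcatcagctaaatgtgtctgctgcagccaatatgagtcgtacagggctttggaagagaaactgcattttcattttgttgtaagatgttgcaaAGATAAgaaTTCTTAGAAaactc
Il9 promoter, stronger in Th9, chr13:56482327-56482446: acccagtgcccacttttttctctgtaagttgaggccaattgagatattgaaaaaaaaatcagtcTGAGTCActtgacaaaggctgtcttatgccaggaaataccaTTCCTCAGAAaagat
Upstream of Il9, stronger in Th9, chr13:56502837-56502956: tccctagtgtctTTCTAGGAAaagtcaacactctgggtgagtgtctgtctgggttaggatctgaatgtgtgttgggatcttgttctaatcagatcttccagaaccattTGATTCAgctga
Osbpl3 intron, stronger in Th9, chr6:50394318-50394437: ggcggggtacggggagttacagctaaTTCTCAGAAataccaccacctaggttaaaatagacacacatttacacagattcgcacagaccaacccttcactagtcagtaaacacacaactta
Il2ra intron, chr2:11647429-11647548: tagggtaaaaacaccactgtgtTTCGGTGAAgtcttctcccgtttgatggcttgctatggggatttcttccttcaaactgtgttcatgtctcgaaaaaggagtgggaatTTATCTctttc
Nipbl intron, stronger in Th2, chr15:8375501-8375620: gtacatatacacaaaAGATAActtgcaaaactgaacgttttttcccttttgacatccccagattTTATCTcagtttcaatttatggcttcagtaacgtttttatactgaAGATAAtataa
Cenpw, intergenic and stronger in Th2, chr10:30390115-30390234: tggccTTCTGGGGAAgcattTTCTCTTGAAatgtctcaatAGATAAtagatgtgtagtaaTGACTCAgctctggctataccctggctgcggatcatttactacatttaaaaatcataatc
The 2 Kif3a intron pairs and the Tmcc1, Rad50 and Osbpl3 pairs carry 3 bases between TTC and GAA, and the Il9 promoter and both Cenpw pairs carry 4.

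The shared regions were peaks of middle strength. Their median percentile was 65.6 and 55.8 in Th9 (replicates 1 and 3) and 65.0 in either Th2 library. The 48805 regions called in all 6 libraries stood higher in each of the 4 libraries, with medians from 71.7 to 80.1. Of the 4615 regions, 3159 (68.5%) were at or above the 25th percentile in all 4 libraries, 495 (10.7%) at or above the 75th and 21 at or above the 90th. The median joined width was 844 bp, with a range from 224 to 5751 bp. The nearest Th17 peak lay a median of 5416 bp away, 18 regions had one within 500 bp, and 1405 (30.4%) had none within 10000 bp.

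**Figure D1:**
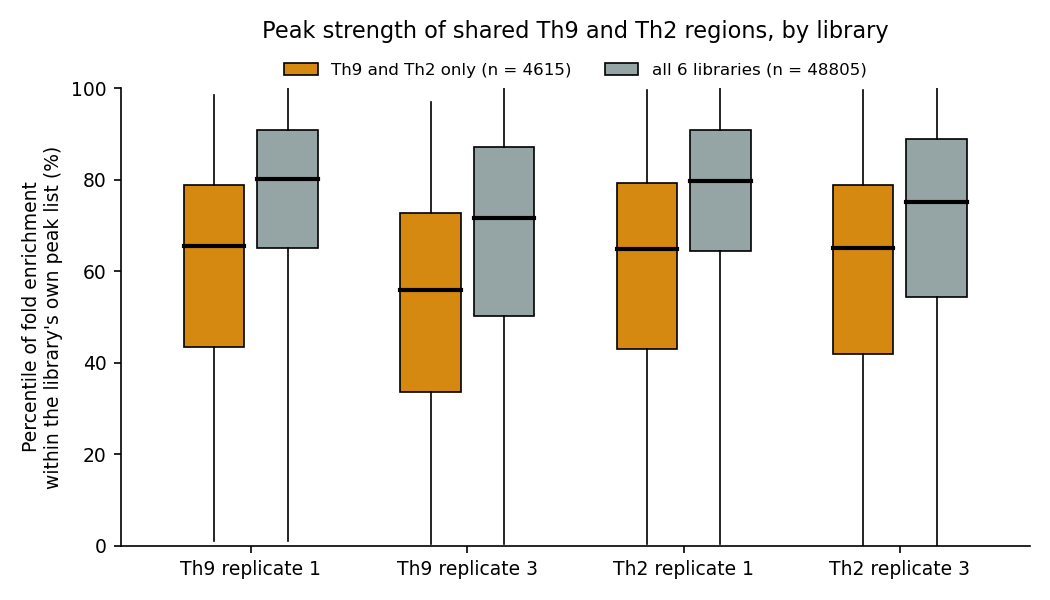
Percentile of fold enrichment (y axis, %, within each library's own list) in the 4 libraries, for the 4615 shared Th9 and Th2 regions and the 48805 regions called in all 6 libraries. Boxes span the quartiles, thick lines are medians and whiskers reach the lowest and highest region; shared regions have the lower median in each library.

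The edge of the choice lies mostly in Th17 peaks below the middle of their lists. A further 5064 regions had the 4 required calls plus a call in 1 Th17 library, and so fell just outside. In 3940 of them the Th17 call came from replicate 1, with a median percentile of 43.3, and in 1124 from replicate 3, with a median of 29.5. The highest of these calls stood at 96.4 in replicate 1 and 75.7 in replicate 3. Just inside, the lowest percentile, 0.224 in Th2 replicate 3 at a fold of 1.73, was shared by the regions nearest Cited2, Dcc and Mapk1ip1. The Cited2 region stood at 54.5 and 41.4 in Th9 and at 50.6 in the other Th2 library. The membership is therefore sensitive to where a list ends. With peaks under a fold of 4 left out of every list, 1625 regions had the pattern and 218 of the original regions (4.72%) were among them. With the 6 lists cut to equal length, 3742 regions had it and 3424 of the original ones (74.2%) stayed.

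The shared regions lay mostly away from promoters, as did joined regions as a whole. A promoter meant 1000 bp upstream to 100 bp downstream of a start of a protein-coding gene. It was overlapped by 194 shared regions (4.20%), against 21.7% of the 58484 regions called in all 4 Th9 and Th2 libraries whatever Th17 did. The share was 25% of regions called in all 6, 6.71% of all regions and 6.28% of regions with 1 Th17 call added. For regions called in both libraries of Th9, Th2 or Th17 alone it was 1.93%, 1.30% and 1.26%. By their centre, the rest were 2135 intronic (46.3%), 2101 intergenic (45.5%) and 185 exonic (4.01%). The median distance to the nearest start was 30653 bp, 1134 regions (24.6%) lay within 10 kb and 1013 lay beyond 100 kb. At 3383 shared regions (73.3%) the promoter of the nearest gene was itself called in all 6 libraries, Th17 included. Such a neighbour was found for 69.0% of all regions and 77.5% of regions called in all 4 Th9 and Th2 libraries. The share of promoters moved with its definition, from 2.25% by the centre alone to 7.78% with 2000 bp on either side. In each of the 4 definitions of a promoter it was under the share of regions called in all 4 libraries, which ran from 11.2% to 26.1%.

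Across chromosomes, the share of joined regions with the pattern was highest on chromosome 11 (250 of 7924, 3.15%) and chromosome 15 (183 of 6524, 2.81%), and lowest on chromosome 7 (234 of 14492, 1.61%). The 4615 regions were nearest to 3180 genes, and 2303 of these genes had 1 region. The nearest start names a neighbour and does not show which gene a region acts on.

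Of the 7 stretches of 100 kb with 5 or more shared regions, the stretch with Il4 and Il13 and one beyond Myc had 6 each. The Il4 and Il13 stretch, chr11:53600001-53700000, held 15 joined regions, 6 of them shared and 1 called in all 6 libraries. The stretch near Myc, chr15:62800001-62900000, held 16, with 6 shared and 3 called in all 6. The others in the leading 5 were chr2:3300001-3400000 near Nmt2, Olah and Rpp38, chr2:44100001-44200000 at Arhgap15 and chr8:34700001-34800000 upstream of Dusp4, with 5 each.

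Among effector cytokines the pattern gathered at the type 2 cytokine locus, where Il4, Il13 and Il5 lie next to Rad50, a DNA repair gene whose introns are known to hold the control elements of this locus, and Kif3a, a motor protein gene. Of 22 genes in the list of effector cytokines, 13 were nearest to a shared region. They had 26 shared regions for 97 regions called in all 4 libraries, or 26.8 per 100, against 7.89 per 100 over the genome. The lists were picked with results of these data known, so the count is a description.

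The Il4 promoter region, chr11:53617068-53619060, covers the first exon of Il4 once its peaks are joined. Only the Th9 replicate 3 peak, spanning -0.391 to 1.60 kb from the start of the gene, reaches that start. The peaks of Th9 replicate 1 and Th2 replicates 1 and 3 stop 0.456, 0.388 and 0.417 kb inside the gene. Percentiles of the region were 89.5 and 92.3 in Th9 replicates 1 and 3 and 87.8 and 88.3 in Th2. Both Th9 values lay above both Th2 values, by little. The log2 fold of Th9 over Th2 was 0.30 ± 0.21 (SE, n = 2 libraries each) on the quantile-normalised log2 scale, with a limma adjusted p of 0.531. Next to Il13, chr11:53635672-53636729 stood at 90.2 and 90.4 in Th9 and 87.8 and 86.8 in Th2 (adjusted p = 0.494, limma). The region meets the Il13 promoter window at its upstream edge, through the Th2 replicate 3 peak, and the peak over the start of Il13 itself was a separate region called in Th2 alone.

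Rad50 introns held 3 shared regions. The strongest, chr11:53654539-53655562, whose GATA word and STAT pair are printed above, had percentiles of 94.7 and 90.2 in Th9 and 91.7 and 86.8 in Th2. Its neighbour chr11:53650817-53651733 had 89.0 and 84.8 in Th9 and 84.8 and 89.5 in Th2. The farthest, chr11:53662881-53663661, was at 80.8 and 79.1 in Th9 and at 15.0 and 49.7 in Th2, so both Th9 libraries stood above both Th2 libraries, and limma gave a log2 difference of 0.83 ± 0.20 (SE) with an adjusted p of 0.0575. In the Kif3a intron, chr11:53592311-53593469 had 77.0 and 76.7 in Th9 and 74.8 and 65.1 in Th2. A weak region upstream of Il4, chr11:53621946-53623034, ranged from 5.35 to 50.6, and one 3.74 kb upstream of Il5, chr11:53716618-53717485, from 28.4 to 72.3. Of the 8 shared regions around Il4, limma called 0, and 1 had an unadjusted p under 0.05, as did 1149 of all 4615 shared regions.

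**Figure D2:**
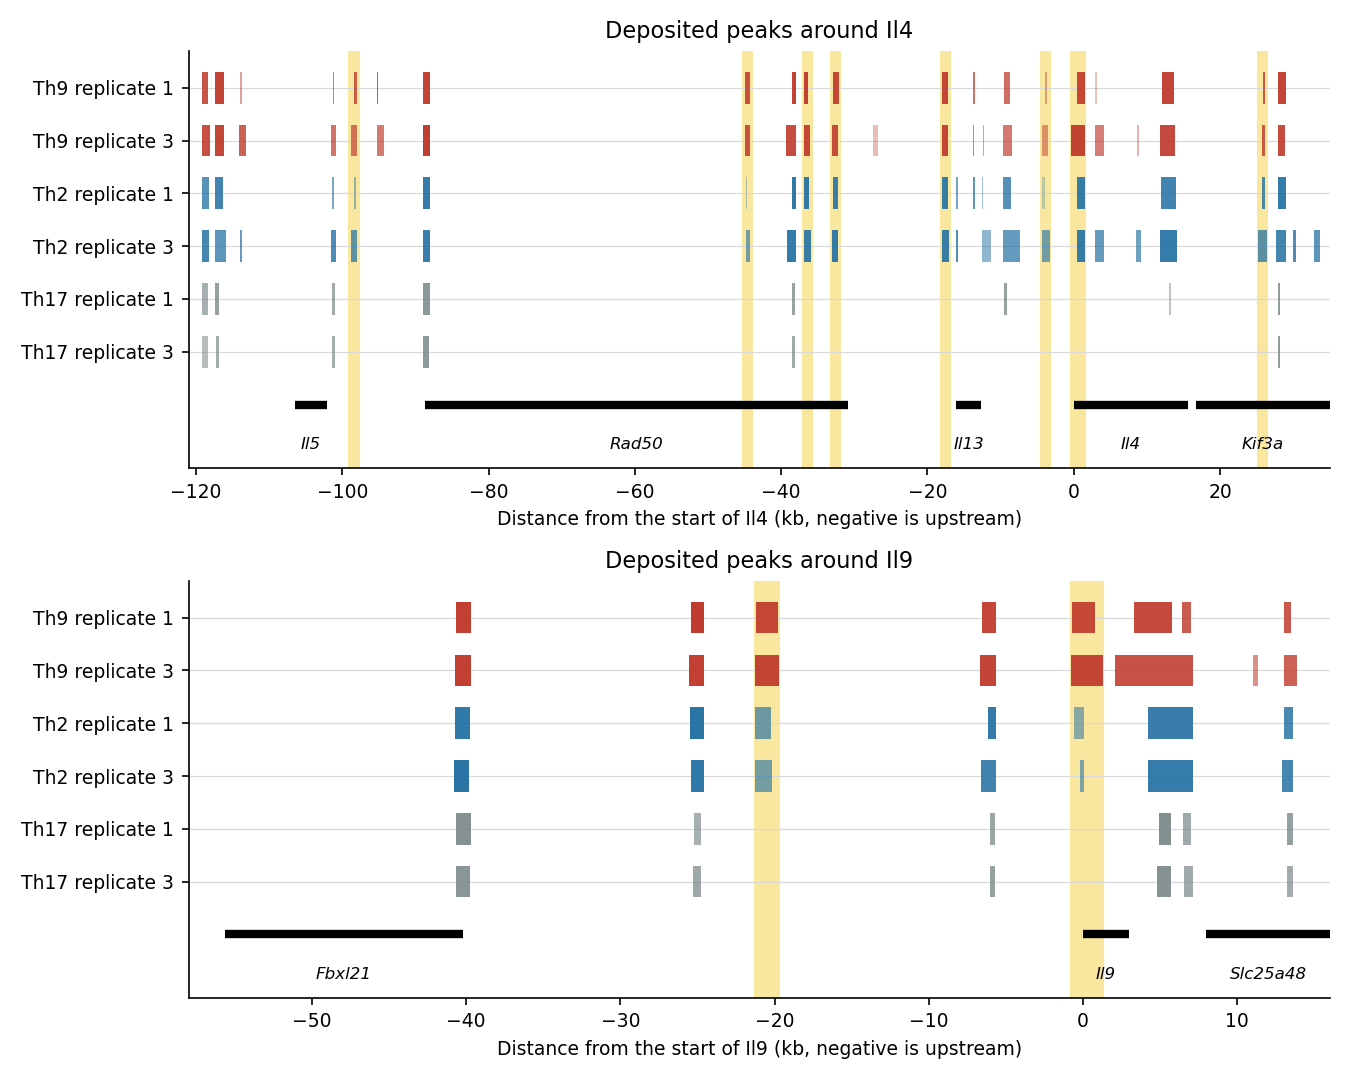
Deposited peaks in the 6 libraries around Il4 (top) and Il9 (bottom), by distance from the gene's start in kb; bars are peaks, shaded more deeply the higher their percentile in their library, black bars are gene bodies and yellow bands are the shared Th9 and Th2 regions. The 8 bands around Il4 and the 2 around Il9 hold a bar in each Th9 and Th2 row and none in the Th17 rows.

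The Il9 promoter was a shared region in which Th9 stood well above Th2. The region chr13:56480974-56483045, spanning -0.799 to 1.27 kb from the start of the gene, had percentiles of 88.6 and 90.7 in Th9 and 37.1 and 44.4 in Th2. The Th9 peaks were also wider, at 1517 and 2072 bp against 621 and 287 bp. The log2 difference was 1.37 ± 0.22 (SE), with a limma adjusted p of 0.0118. A second region near Il9, chr13:56501974-56503531, is singled out after its values were seen, since its nearest start is that of Fbxl21, at 19.7 kb, rather than Il9, which lies slightly farther on the other side. It stood at 89.2 and 91.8 in Th9 and at 55.5 and 50.2 in Th2, a log2 difference of 1.32 ± 0.22 (SE, limma adjusted p = 0.0136). The 2 Il9 regions were alike in this: called in both conditions, with both Th9 libraries above both Th2 libraries. At a region between them, called in all 6 libraries, the log2 difference was 0.39 ± 0.22.

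At other cytokine genes the conditions differed less or overlapped. The Il6 promoter, chr5:30012710-30013556, had 79.7 and 85.7 in Th9 and 72.7 and 67.4 in Th2 (adjusted p = 0.284, limma). Il24, a cytokine of the IL-10 family, had a region of 3003 bp at chr1:130892404-130895406 with 86.2 and 88.0 in Th9 and 91.8 and 91.8 in Th2. The Il10 promoter region was weaker, at 48.5 and 44.6 in Th9 and 41.0 and 49.3 in Th2. Lif had 3 shared regions, Il10 had 3, and Csf2, Ifng, Il21 and Tnfsf11 had 2 each. Of the 26 cytokine regions, 8 (30.8%) had both Th9 libraries above both Th2 libraries and 5 (19.2%) had the reverse, where 17.5% and 23.0% of the 58484 regions called in all 4 libraries did. Limma called 1 of the 26, the Il9 promoter, where it called 0.441% of those 58484 higher in Th9 and 1.39% higher in Th2.

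Among receptors for cytokines and alarmins, 13 of 26 genes had 20 shared regions, none of them at a promoter. That was 13.1 per 100 regions called in all 4 libraries, where chromosomes 1 to 19 had 7.89. Il2ra, the high-affinity subunit of the IL-2 receptor and a known STAT5 target, had one in an intron, chr2:11646679-11647918, at 80.2 and 77.2 in Th9 and 48.4 and 50.8 in Th2. The Th9 libraries did not overlap the Th2 libraries there, with a log2 difference of 0.67 ± 0.20 (SE) and a limma adjusted p of 0.0986. Il10ra leaned the same way, with 86.0 and 80.4 against 69.2 and 59.1. Il7r, the IL-7 receptor chain, had 3 regions, and the one at chr15:9520301-9520824 leaned towards Th2, at 71.8 and 54.9 in Th9 against 84.5 and 88.0. The receptors for TGF-β, the cytokine added to Th9 and Th17 but not Th2 cultures, had 8 shared regions near Tgfbr1, Tgfbr2 and Tgfbr3. In the Tgfbr1 intron the percentiles were 37.1 and 71.3 in Th9 and 84.1 and 84.1 in Th2. Of the 20 receptor regions 8 (40%) had Th9 above and 9 (45%) had Th2 above, beside the same 17.5% and 23.0%. Limma called 0 of them at an adjusted p under 0.05, and 7 had an unadjusted p under 0.05, as did 1149 of all 4615 shared regions.

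In the list of IL-4 to STAT6 and IL-2 to STAT5 signalling, 13 of 22 genes had 23 shared regions, or 13.9 per 100 regions called in all 4 libraries. Irs2, an adaptor that binds the IL-4 receptor, had a region at chr8:10798165-10798985, 210 kb past its start, at 88.3 and 76.9 in Th9 against 24.2 and 8.94 in Th2 (log2 difference 1.14 ± 0.20 SE, limma adjusted p = 0.0156). The other Irs2 region lay the opposite way, at 71.1 and 66.5 in Th9 against 85.4 and 76.4 in Th2 (adjusted p = 0.416, limma). Socs1, an inhibitor of cytokine signalling, had one in an intron of Clec16a at 87.2 and 92.8 in Th9 and 67.7 and 79.1 in Th2 (adjusted p = 0.102, limma). Stat5b had an intronic region at 74.0 and 80.0 against 44.3 and 54.6, and Cish, a STAT5-induced inhibitor, had an exonic region at 46.8 and 53.2 against 55.0 and 68.1.

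The list of T helper transcription factors was the longest and had the most shared regions, 70 near 30 of 45 genes. That was 12.2 per 100 regions called in all 4 libraries, where chromosomes 1 to 19 had 7.89. Of the lists, only that of Th17 genes, at 11.4, had a lower rate. Dusp6, a MAP kinase phosphatase kept in that list, and Id2, an inhibitor of E proteins, had 6 each, and Prdm1, which encodes Blimp-1, and Runx1 had 5 each. Batf had 2 upstream regions. The one at chr12:85667802-85670632, 17.5 kb from the start, stood at 93.2 and 88.2 in Th9 and 69.4 and 80.9 in Th2, with a limma adjusted p of 0.0574. Gata3, the Th2 master regulator, had 3 regions, the nearest 314 kb past its start; the strongest was at 91.4 and 91.7 in Th9 and 85.3 and 93.5 in Th2, so the conditions overlapped. Prdm1 at chr10:44609075-44609584 was at 85.8 and 83.9 in Th9 and 95.6 and 93.1 in Th2. Pparg, which encodes a lipid-sensing receptor of type 2 cells, leaned the same way in an intron, at 22.2 and 12.5 against 69.2 and 67.7 (adjusted p = 0.0725, limma). The promoter of Tbx21, the Th1 master regulator, was a shared region of low percentile, 43.9 and 15.3 in Th9 and 3.63 and 4.73 in Th2. Of the 70 regions, 17 (24.3%) had both Th9 libraries above and 21 (30%) had both Th2 libraries above, beside 17.5% and 23.0% over all regions called in the 4 libraries. Limma called 0 of the 70 in either direction, and 26 had an unadjusted p under 0.05, as did 1149 of all 4615 shared regions.

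The remaining lists were smaller. Per 100 regions called in all 4 libraries, co-stimulatory and inhibitory receptors had 13.6 shared regions and chemokine and lipid receptors 12.7. Th17 genes had 11.4, where chromosomes 1 to 19 had 7.89. Co-stimulatory and inhibitory receptors had 21 shared regions near 11 of 23 genes, 4 of them at Icos and 4 at Pdcd1. Chemokine and lipid receptors had 15 near 7 of 16 genes, with 4 each at Ptger4, a prostaglandin E2 receptor, and S1pr1, which guides exit from lymph nodes. The Ptger4 region at chr15:5758278-5759853 reached 94.2 and 94.6 in Th9 and 77.8 and 94.2 in Th2. The list of Th17 genes also had shared regions, 14 near 6 of 18 genes, though the pattern requires no Th17 call. Of these, Tmem176a had an exonic region that limma called higher in Th9 (94.3 and 91.4 against 68.8 and 82.9, log2 difference 1.04 ± 0.22 SE, adjusted p = 0.0357). Sox5, a transcription factor gene, had 6, and limma called the one at chr6:144567656-144569722 higher in Th2, at 20.1 and 23.5 in Th9 against 81.5 and 84.3 (log2 difference -0.99 ± 0.20 SE, adjusted p = 0.0257). Of the 14 regions, 2 (14.3%) had both Th9 libraries above and 4 (28.6%) had both Th2 libraries above, beside 17.5% and 23.0% over all regions called in the 4 libraries.

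Markers of other blood cells had 9 shared regions near 5 of 24 genes, or 15.8 per 100 regions called in all 4 libraries. Chromosomes 1 to 19 had 7.89, and of the lists only that of effector cytokines, at 26.8, had a higher rate. Adgre1, which encodes the macrophage protein F4/80, had 4, its promoter among them at 11.3 and 47.8 in Th9 and 8.96 and 45.0 in Th2. Itgam had 2 regions, neither at the promoter. The promoters of Cd79a, Ms4a1, Pax5, Lyz2, Csf1r, Itgam, Mpo, Ncr1, Cpa3, Gata1 and Epx were called in no library. The part of other cells in the shared pattern was otherwise not tested.

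The genes with the most shared regions were not those of the lists. Myc, a growth regulator, and Foxp1, a transcription factor that keeps T cells quiescent, had 12 each. The Myc regions lay 77.4 to 859 kb from its start, and 6 of them stood within the 100 kb stretch named above. The strongest, chr15:62821381-62822597, had 96.2 and 92.0 in Th9 and 88.6 and 89.7 in Th2. The Foxp1 regions reached 252 kb from its start, 11 of them in introns of Foxp1. Enox1 followed with 11, Cntn5, a neuronal adhesion gene, with 10, Dusp4, a MAP kinase phosphatase, Gnaz, a G protein subunit, and Efna5, an ephrin, with 9, Tnr with 8, and Mei4 and Inpp4b with 7, the number that some further genes had too. These 10 genes were nearest to 41 (Dusp4) to 292 (Efna5) joined regions of any pattern, with 99 at Myc and 49 at Enox1. Limma called 1 of the 10 Cntn5 regions and 1 of the 9 Dusp4 regions higher in Th2, and none of the other genes' regions in this group.

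At the top of the strength order, regions were strong in all 4 libraries. The region nearest Ppp2r3a, a regulatory subunit of protein phosphatase 2A, chr9:101269517-101271285, had 98.2 and 97 in Th9 and 99.6 and 99.7 in Th2. It lay 18.6 kb upstream of the gene, and both Th2 libraries were above both Th9 libraries (log2 difference -0.60 ± 0.17 SE, limma adjusted p = 0.0896). A region in the gene of thyroglobulin, Tg, stood at 95.9, 95.7, 96.6 and 95.7 in the same order of libraries. Tmcc1 had 95.5 and 93.9 in Th9 and 97.5 and 98.4 in Th2. Regions nearest Pth, Cuedc1, Nrip1, Tex30, Stard4, Mef2c and Man1a completed the 10, genes named Gm left out, with no percentile under 91.7. Mef2c, a transcription factor, was 384 kb from its region, and Nrip1, a nuclear receptor corepressor, 131 kb.

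Of the 194 regions at promoters, the strongest was that of Ktn1, a kinectin gene, at 89.8 and 90.1 in Th9 and 93.4 and 92.9 in Th2, followed by Il4 and Il13. Frmpd2, Gabpb2, Fam198a, Klk14, Olfr642, Myadm and Selenbp1 came next. Myadm, a myeloid-associated membrane protein gene, was the one of these 10 that passed in limma, at 91.2 and 88.1 in Th9 and 70.2 and 75.8 in Th2 (log2 difference 0.87 ± 0.21 SE, adjusted p = 0.0485).

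Whether shared regions were stronger in Th9 or in Th2 was asked within each library's own list. Both Th2 libraries lay above both Th9 libraries at 1458 regions (31.6%), where 23.0% of the 58484 regions called in all 4 libraries did so. The reverse held at 846 regions (18.3%), near the 17.5% over all those regions, and at the other 2311 the conditions overlapped. The median difference, Th9 minus Th2 in mean percentile, was -3.05 points, against -0.660 over all regions called in the 4 libraries. The lean to Th2 was not seen in both replicates. Between the replicate 1 libraries the median difference was 0.116 points and Th9 was the higher at 50.2% of shared regions, while between the replicate 3 libraries it was -6.27 points and Th9 was higher at 36.1%. Without Th9 replicate 3 the median difference turned to 1.18 points. The 2 Th9 libraries themselves differed by a median of 6.59 points at these regions, more than the difference between the conditions. With ranks taken only among regions called in all 4 libraries, the difference was -0.923 points, and Th2 was the higher at 28.3% of shared regions against 22.5% of all.

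Region by region, limma called 55 shared regions higher in Th9 (1.19%, where 0.441% of all 58484 tested were) and 127 higher in Th2 (2.75%, where 1.39% were), at a Benjamini-Hochberg adjusted p under 0.05. These calls changed with the scale and with the libraries used. On the percentile scale limma called 0 in either direction, with 743 shared regions at an unadjusted p under 0.05; with median centring it called 198 and 198. Without Th9 replicate 1 it called 1 and 0, without Th9 replicate 3 it called 2 and 4, without Th2 replicate 1 it called 29 and 146, and without Th2 replicate 3 it called 58 and 101. The median log2 difference was 1.05 for those higher in Th9 and -1.03 for those higher in Th2. The regions higher in Th9 had median percentiles of 87.8 in Th9 and 51.9 in Th2, and those higher in Th2 had 61.9 in Th9 and 91.8 in Th2.

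**Figure D3:**
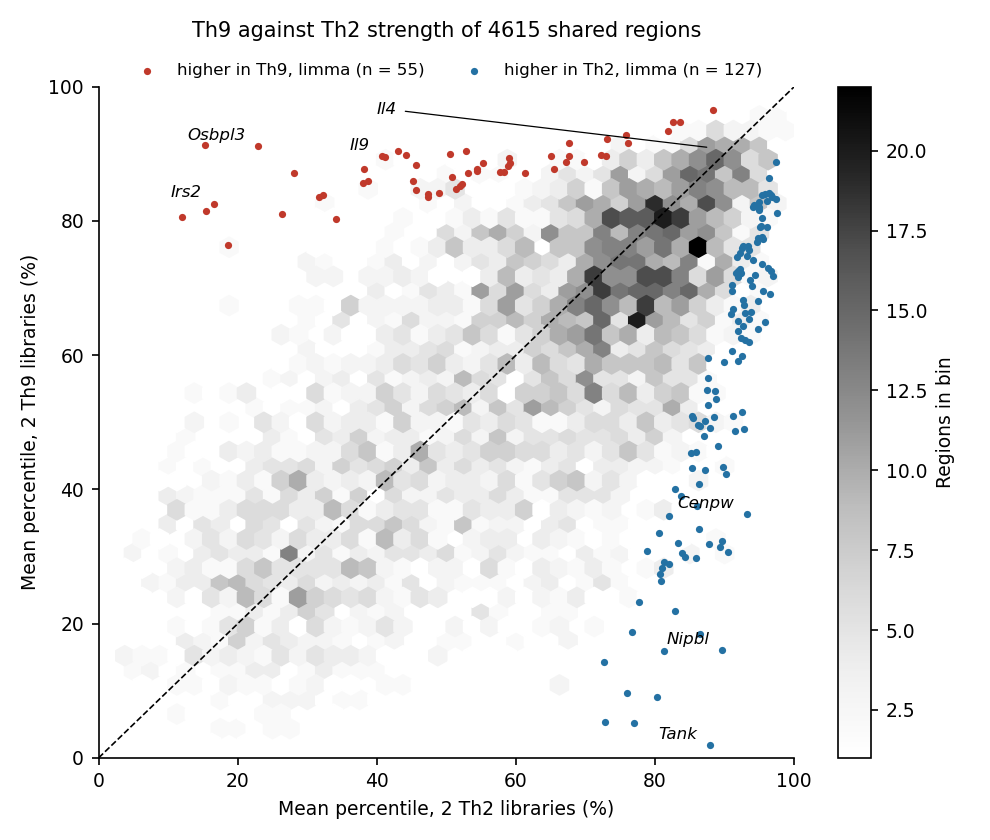
Mean percentile over the 2 Th9 libraries (y axis, %) against that over the 2 Th2 libraries (x axis, %) for the 4615 shared regions, with grey hexagons for the number of regions per bin, red points for the 55 higher in Th9 and blue points for the 127 higher in Th2 by limma. Called regions lie along the upper and right edges, where one condition is near the top of its lists, and the Il4 promoter lies near the diagonal.

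Leaving out genes named Gm, one of which had a wider gap, the gaps towards Th9 were led by an intron of Osbpl3, an oxysterol-binding protein gene. The region chr6:50393889-50394866 had 93.5 and 88.8 in Th9 and 18.6 and 27.3 in Th2, with a log2 difference of 1.64 ± 0.21 (SE, limma adjusted p = 0.00515). Next came Fto, an RNA demethylase gene, at 65.2 and 72.9 against 7.85 and 5.58; its log2 difference was 0.67 ± 0.17 and its adjusted p of 0.0595 missed the threshold. Klhdc2, at 85.0 and 76.2 against 19.1 and 4.69, passed it (adjusted p = 0.0156, limma), as did Per3, Susd2, Irs2, Aste1 and Il9. H2-DMb1, needed for peptide loading on MHC class II, and Ninj2 did not, with adjusted p of 0.0634 and 0.0864.

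Towards Th2 the gap was widest at an intron of Tank, an adaptor of TRAF and TBK1 signalling. The region chr2:61630980-61633481 had 85.9 and 89.8 in Th2 and 2.31 and 1.40 in Th9, with a log2 difference of -1.41 ± 0.21 (SE, limma adjusted p = 0.00961). The region was thus near the bottom of both Th9 lists, while a peak was still called there. Nipbl, the cohesin loader, had 89.2 and 90.1 in Th2 and 11.6 and 20.5 in Th9 (log2 difference -1.44 ± 0.21 SE, adjusted p = 0.00743, limma). The intergenic region nearest Cenpw, a centromere protein gene, stood at 91.9 and 94.5 in Th2 and 37.5 and 35.1 in Th9 (log2 difference -1.65 ± 0.22 SE, adjusted p = 0.0055, limma). Zzz3, Frrs1l, Zfp956, Rsph3b and a Sox5 intron also passed, and Bpifc and Ttc27 did not, with adjusted p of 0.0646 and 0.0557.

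The sequence at the centre of the regions was not used in choosing them. In the central 300 bp, read on both strands, a STAT pair with 3 bases between was found in 821 of 4615 regions (17.8%), against 9.27% of regions called in all 4 libraries, 8.37% of those called in all 6, 8.84% of the Th17-only regions and 8.61% of all regions. With 4 bases between it was found in 557 (12.1%), against 6.64%, 6.13%, 6.0% and 6.55%. Other spacings of TTC and GAA, from 1 to 8 bases, ranged from 8.54% to 10.2% in shared regions. The spacing search from 1 to 8 bases was added after the first values were seen. Regions just outside, with 1 Th17 library called, held the pair with 3 bases between in 10.2%. Regions called in both Th9 libraries and no other held it in 13.5%, and those called in both Th2 libraries and no other in 9.53%.

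GATA words were found in 954 regions (20.7%) and AP-1 words in 925, or 20%, against 11.2% and 11.8% of regions called in all 4 libraries. Th17-only regions held them in 12% and 15.5%. Regions called in both Th2 libraries and no other held them in 19.7% and 23.4%, close to or above the shared regions. Those called in both Th9 libraries and no other held them in 10.3% and 8.33%. An AP-1 word with GAAA directly before it or TTTC 4 bases before it is the kind of element that BATF and IRF4 bind together. This composite was rare, at 1.63% against 0.658%, and at 1.28% in regions called in Th2 alone. RUNX words (TGTGGTT, 9.25%) were above their share in regions called in all 4 libraries, 7.13%, and below that in Th17-only regions, 12.5%. A STAT, GATA or AP-1 word was found in 2374 shared regions (51.4%), against 31.9% of those called in all 4 libraries, and 73 had all of these kinds. Letter content was compared in 2 ways. With the letters reversed, GATA was found in 14.2% of shared regions against 9.28% of the other regions called in all 4 libraries, AP-1 in 9.84% against 6.28%, and the STAT pair with 3 bases between in 10.5% against 9.71%. The pair with 4 bases between, reversed, was in 11.5% against 7.68%, close to the 12.1% of the true word in shared regions. Among regions outside promoters with 40 to 50% GC, the STAT pair with 3 bases between was in 20.1% of 2583 shared and 10.7% of 20030 other regions, GATA in 22.8% and 14.2%, and AP-1 in 21.7% and 16.3%.

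**Figure D4:**
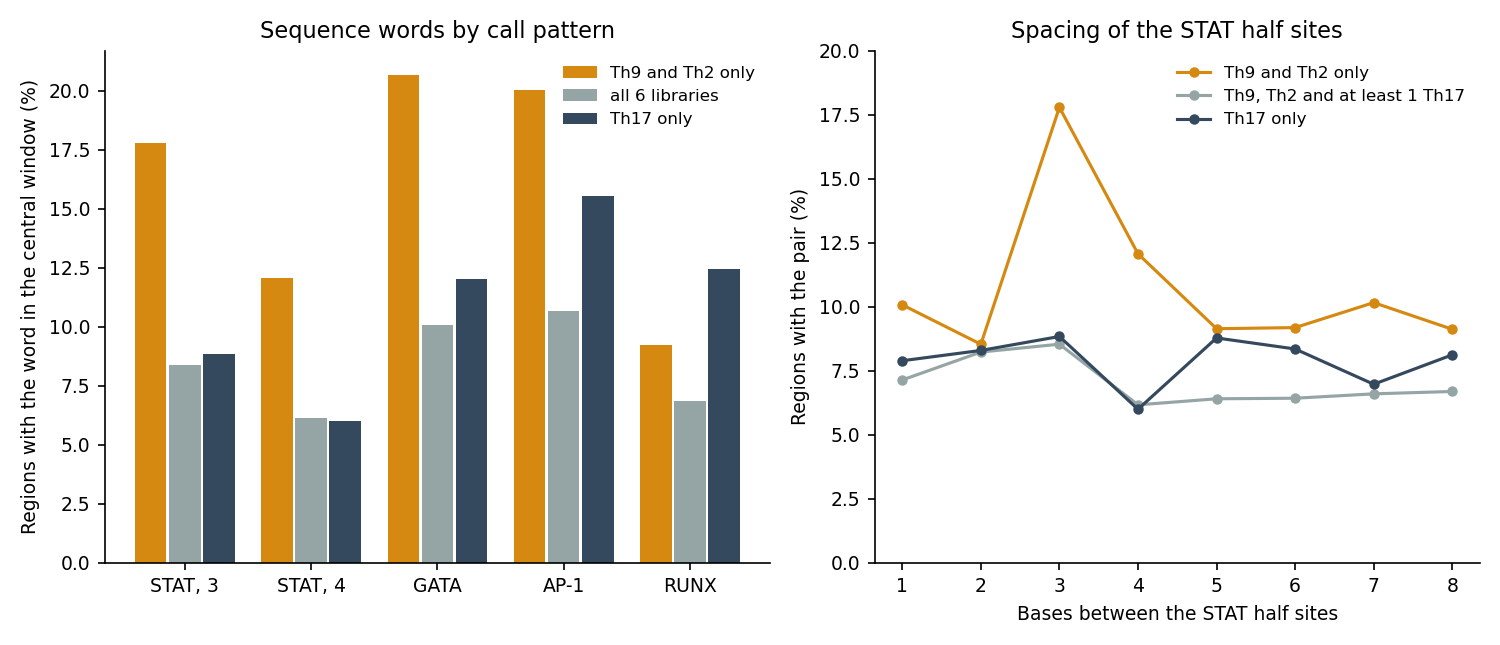
Left, share of regions (%) with each word in the central 300 bp, for the shared Th9 and Th2 regions, regions called in all 6 libraries and Th17-only regions; STAT, 3 and STAT, 4 give the bases between TTC and GAA. Right, share of regions (%) with TTC and GAA at each spacing from 1 to 8 bases, also for regions called in Th9, Th2 and at least 1 Th17 library; there shared regions peak at 3 bases (17.8%) and stand second at 4 (12.1%).

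STAT pairs and AP-1 words lay towards the centres. In bins of 50 bp, the STAT pair with 3 bases between was found 39.7 times per 1000 shared regions in the bin centred 75 bp before the centre, and 22.5 and 17.1 times in the outermost bins. Other regions called in all 4 libraries held 14.1 to 17.2 matches per 1000 in every bin. AP-1 words rose to 43.1 per 1000 near the centre of shared regions and also rose in Th17-only regions, to 33.9. GATA words reached 46.8 near the centre of shared regions, where Th17-only regions had 19.2 in the same bin.

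**Figure D5:**
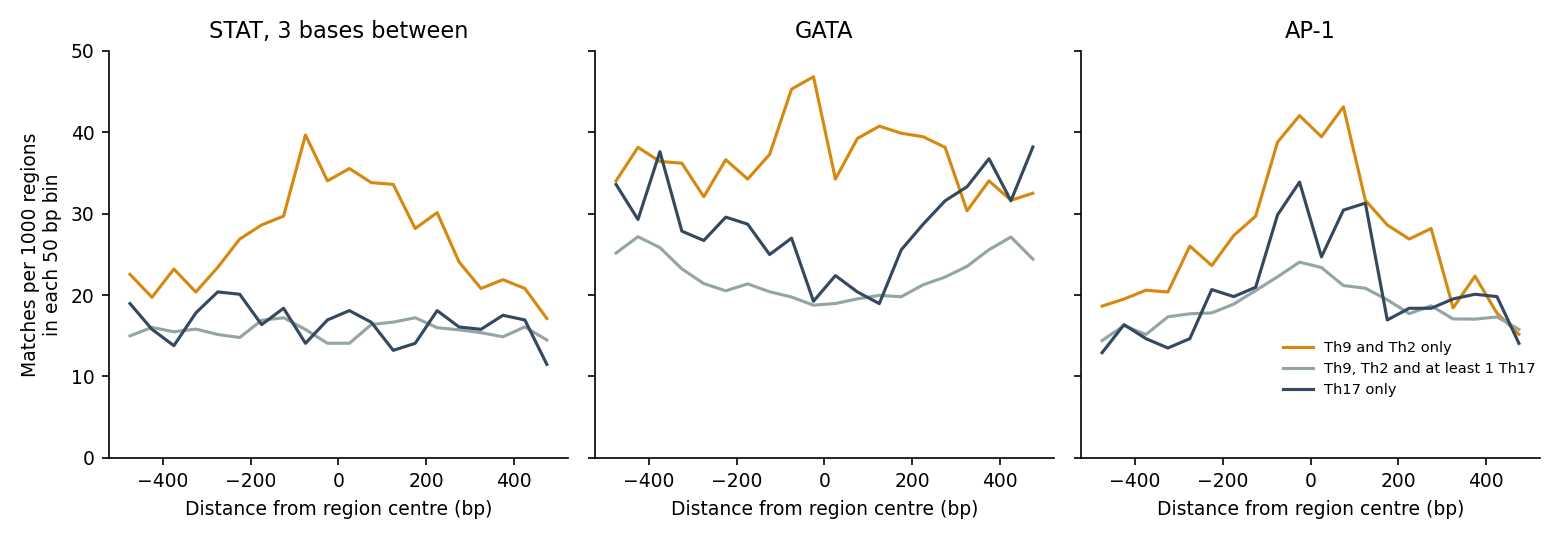
Matches per 1000 regions in each 50 bp bin (y axis) by distance from the region's centre in bp (x axis), for the STAT pair with 3 bases between, GATA and AP-1 in shared Th9 and Th2 regions, in regions called in Th9, Th2 and at least 1 Th17 library, and in Th17-only regions. In shared regions STAT pairs and AP-1 words are more frequent within 100 bp of the centre than in the outermost bins; GATA words vary more from bin to bin.

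Words varied with strength and with direction among the shared regions themselves. From the weakest to the strongest of 4 equal groups by mean percentile, the STAT pair with 3 bases between went from 9.53% to 22%, GATA from 11.1% to 28.8% and AP-1 from 9.71% to 26.4%. Regions with both Th9 libraries above both Th2 libraries held the STAT pair with 3 bases between in 201 of 846 (23.8%), and those with Th2 above in 219 of 1458 (15.0%). Outside the shared regions the same shares were 9.16% and 9.14%. AP-1 words went the other way, in 16.5% with Th9 above and 24.8% with Th2 above, and did so outside the shared regions too, with 6.72% and 19.8%. Of the 55 regions that limma called higher in Th9, 29 (52.7%) held the STAT pair with 3 bases between, the Osbpl3 stretch printed above among them, and of the 127 called higher in Th2, 15 (11.8%) did. GATA words were in 14 of the 55 (25.5%) and 43 of the 127 (33.9%). The words printed above for Nipbl, Cenpw, Ppp2r3a, Il2ra, the Il9 promoter and the Kif3a and Rad50 introns lie outside the central 300 bp. The AP-1 word printed for the region upstream of Il9 does too. A word is a match of letters, and binding was not measured here.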

How the data were processed

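ATAC-seq was carried out by the authors on Th9, Th2 and Th17 cultures, with 2 libraries each. Reads were paired-end, from an Illumina sequencer. Per the submitters' processing notes and the study's methods, reads were trimmed with Trim Galore 0.4.3, aligned to mm10 with Bowtie2, cleared of duplicates with Picard, and peaks were called in each library with MACS2 2.1.0. Whether reads were shifted for Tn5 is not given in the sources used here. The deposited broad peak lists give a fold enrichment (a linear ratio), a p-value and a q-value as −log10, and a display score, of which the −log10 p was used to cut lists to equal length, the −log10 q as an alternative threshold and the score not at all. No count or depth is in these lists.

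Peaks were joined in Python 3.11.15 as described in the text. For each library and region the highest fold of the overlapping peaks was kept. Th9 and Th2 were compared over 58484 regions with limma 3.58.1 in R 4.3.3, on quantile-normalised log2 fold with a mean trend, two-sided, with Benjamini-Hochberg adjustment over all 58484 and a threshold of 0.05. In data simulated for this comparison over 58484 regions, 21, 171 and 200 of 200 changed regions were recovered at log2 shifts of 0.5, 1 and 2, with 0, 14 and 9 false calls. Genes were the protein-coding genes of GENCODE M21 (20807 on chromosomes 1 to 19), and sequence came from RefSeq's GRCm38.p6.

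The regions, gene lists and tests were chosen with earlier results of these data known. Named were list genes nearest to a region, the 10 genes with the most regions, the 10 strongest regions, the 10 widest gaps in each direction, the 10 strongest promoter regions and the 5 fullest 100 kb stretches; genes named Gm or ending in Rik were left out. Alternatives were other peak thresholds, list lengths and overlap rules, other scales, filters and a replicate block, other promoter and gene definitions, another window centre, and leaving out each library. STAT pairs at other spacings and words with reversed letters were added after the data were seen. Some items that the naming rule would give are not reported here.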

Additional observations from a re-analysis of the deposited data

How the results depend on the processing

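The number of shared regions, 4615, went to 2058 with a −log10 q of at least 5, 1625 with a fold of at least 4, 1046 with an equal, short list of the strongest peaks by fold from each library, 8808 counted in 1 kb bins and 21019 where either library of a condition sufficed; leaving out 1 library gave 5716 to 8555. Regions that limma called higher in Th9 and in Th2, 55 and 127, went to 0 and 0 on percentiles, 198 and 198 with median centring, and, higher in Th9, to 33 with a fold of at least 2.2. With a replicate block they were 171 and 332; the labels give no shared animal or day for a number, and the deviations of same-numbered libraries correlated at r = 0.216. Leaving out 1 library gave 1 to 58 and 0 to 146, with the lone library assumed to vary like the rest. The share of regions with both Th9 libraries above (18.3%) ranged from 24.5% to 40.2% and with both Th2 above (31.6%) from 37.8% to 54.2% with 1 library left out, since 1 library is easier to clear. Promoters took 7.78% within 2000 bp, 7.32% with all annotated genes, 2.25% by centre and 6.74% with a fold of at least 2.2. At the strongest peak's centre, AP-1 was in 22.3% and the STAT pair with 3 bases between in 19%. The cause of these shifts was otherwise not tested. Read depth is unknown here, and its part in which Th17 peaks were listed was not tested.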

Other observations

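The X chromosome was not part of the choice. Under the same rule it held 117 regions of 10403 (1.12%), or 6.30 per 100 regions called in all 4 Th9 and Th2 libraries, where chromosomes 1 to 19 held 7.89. The strongest, 377 kb upstream of Diaph2, had percentiles of 96.4 and 90.7 in Th9 and 91.9 and 91.9 in Th2. A region nearest Tex13c3 had 91.1 and 86.3 in Th9 and 87.1 and 87.8 in Th2.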
